A study of Mus musculus with 9 samples.

Results

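The genes described here mark the endothelium, the cell layer that lines blood and lymph vessels, in mouse lung. They are 46 genes chosen by name for roles in capillary, arterial, venous and lymphatic endothelium, with earlier results of these data known. All 46 were found, each on 1 row, among the 30865 genes of the deposited count table. RNA was sequenced from lung in 9 libraries. Of these, 3 carry the treatment label of a Hif-1α knockdown after hypoxia, 3 come from hypoxia alone and 3 from normoxia. Hif-1α is the oxygen-regulated subunit of the transcription factor HIF-1, encoded by Hif1a. The series design speaks of sustained hypoxia in mice and asks what it does to lung gene expression, and what the knockdown changes under it. Strain, age, oxygen level, exposure time and the means of the knockdown are missing from the labels, as is a statement that libraries come from separate mice. All p-values thus rest on the scatter of 3 libraries a group, part of which may be technical. The main fit pools that scatter over the 3 groups, so the p-values of a comparison also depend on the group outside it.

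Lung endothelium is made up mostly of capillaries, where general capillary cells serve as a reserve and thin aerocytes take part in gas exchange. Arteries, veins and lymphatics each carry their own transcription factors, connexins and adhesion molecules. Endothelial junctions hold fluid in the vessel, and BMP signals through the receptor ALK1 and its partner endoglin keep the endothelium quiescent. In lung, lasting hypoxia is known to remodel vessels and to raise pulmonary arterial pressure.

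The libraries held 15566485 to 18046442 counts, and levels below are in CPM, counts scaled to a common library size. In these bulk libraries, fewer endothelial cells and less RNA per endothelial cell cannot be told apart. Hif1a had 86.4, 85.5 and 85.0 CPM in the knockdown-labelled libraries, 93.4, 98.3 and 88.6 in the hypoxia libraries and 80.3, 87.8 and 78.6 in the normoxia libraries. The knockdown-labelled libraries lay below all hypoxia libraries, but the difference did not pass the test (log2 fold change -0.13, SE 0.08, adjusted p = 0.62), so the group is called by its label throughout. The titles say muscle and the tissue field says lung. The surfactant gene Sftpc, a mark of alveolar type 2 epithelium, averaged 16876 ± 2632 CPM in the knockdown-labelled libraries, 15517 ± 2535 in hypoxia and 13911 ± 1067 in normoxia (SD, n = 3 each), and the skeletal muscle actin gene Acta1 reached no more than 0.523 CPM in any library. Hypoxia replicate 2 stood apart from its group in markers of lymphocytes and dividing cells: the summed T and NK cell genes were at 1082, 356 and 924 CPM in the hypoxia libraries, and the cell cycle genes at 542, 228 and 504.

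The endothelial genes as a whole stood lower in both hypoxic groups than in normoxia. Between the hypoxic groups 1 of 45 tested members changed (2.22%, against 1.71% of all genes), a call kept in 3 of 9 fits without 1 library. The summed level of all members was 11511, 11446 and 12352 CPM in the knockdown-labelled libraries, 11735, 11238 and 12026 in the hypoxia libraries and 13300, 15103 and 15061 in the normoxia libraries. Each hypoxic library lay below each normoxia library, and normoxia replicate 1 was the lowest of its group. The group means were 81.2% of normoxia with the knockdown label and 80.5% in hypoxia.

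In hypoxia against normoxia, 5 of 45 tested members fell (11.1%, against 1.45% of all 17578 tested genes) and 1 rose (2.22%, against 2.77%; 4.22% of all genes changed either way). A gene fell, rose or passed where the edgeR quasi-likelihood test gave an adjusted p under 0.05 over all tested genes, and another tool is named where it differed. The count of members that fell was 13 with DESeq2, 16 without a low-count filter and 2 with the replicate number as a block. Over all genes, 495 of 17574 fell with DESeq2, 442 of 30865 without the filter and 118 of 17578 with the block. In the main fit 255 of 17578 did. The median log2 fold change was -0.28 over the members and -0.01 over all tested genes, and 38 of the 45 members were below 0 (51.3% of all genes). For 18 members each hypoxia library lay below each normoxia library (11.6% of all genes), and for 1 member the hypoxia libraries lay above (2.22%, against 10.6%). At an unadjusted p under 0.05, 21 members were lower (8.17% of all genes) and 3 higher (9.28%). The members that fell were Cldn5, Vwf, Lyve1, Gja5 and Shank3, and the one that rose was Mmrn2. These calls leaned on single libraries, and calls over all genes did so too. Without normoxia replicate 3 none of the members passed (17 lower and 3 higher at an unadjusted p under 0.05 with edgeR), without hypoxia replicate 1 only Cldn5 did, and without hypoxia replicate 3 only Shank3 and Mmrn2. Without normoxia replicate 2, Cldn5 and Shank3 fell and Mmrn2 rose. Without knockdown-labelled replicate 3, 8 fell. Without normoxia replicate 1, 7 fell and none rose with edgeR (2 higher at an unadjusted p under 0.05), and without hypoxia replicate 2, 4 fell and 2 rose. The median over the members stayed between -0.35 and -0.195 in the 9 fits that left out 1 library.

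In the knockdown-labelled libraries against normoxia, 12 of 45 tested members fell (26.7%, against 3.44% of all genes) and 2 rose (4.44%, against 4.79%; 8.23% of all genes changed either way). At an unadjusted p under 0.05, 21 were lower (11.1% of all genes) and 4 higher (12.0%). The median log2 fold change was -0.23, with -0.005 over all tested genes, and 35 members were below 0 (50.7% of all genes). All knockdown-labelled libraries lay below all normoxia libraries for 17 members (37.8%, against 13.5%) and above them for 5 (11.1%, against 14.5%). DESeq2 called 15 lower and 3 higher, and 927 lower and 1147 higher among all 17574 genes it tested. Those that fell were Cdh5, Cldn5, Esam, Ptprb, Tie1, Plvap, Apln, Gja5, Vwf, Cyyr1, Shank3 and Nostrin, and those that rose were Mmrn2 and Gja4. Between 5 (without normoxia replicate 3) and 13 members fell when 1 library was left out. Over all genes, 258 of 18024 fell without normoxia replicate 3, and up to 632 in the other fits of this kind. With the replicate number as a block, 9 members passed, 1 of them higher. Over all genes, 352 fell and 584 rose with that block. Both comparisons share the normoxia libraries, so they are not independent of each other. In all, 11 of 45 members differed among the 3 groups (7.95% of all genes), a number that was 6 without normoxia replicate 2 and 4 without normoxia replicate 3. The share of all genes is given for the main fit only.

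**Figure D1:**
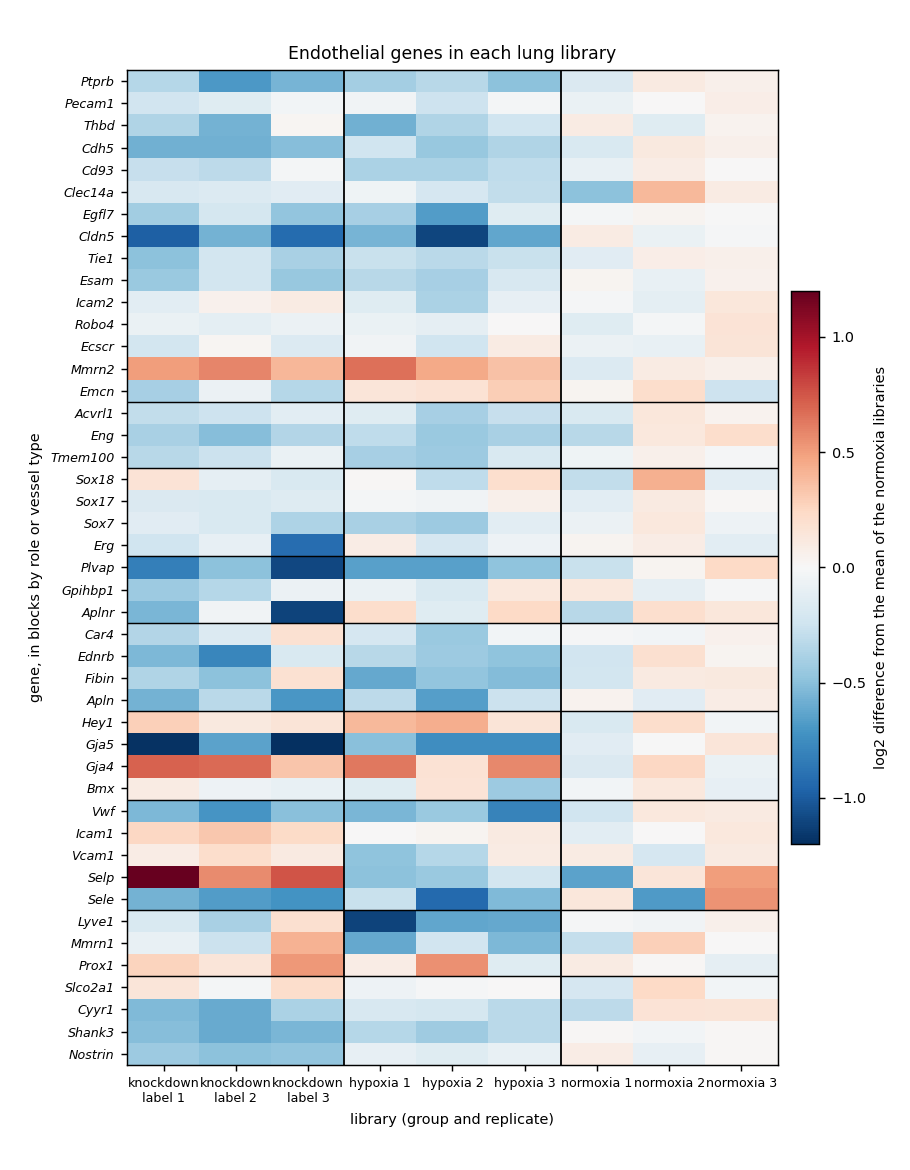
Level of each of the 45 tested endothelial genes (rows, in blocks by role or vessel type) in each library (columns), as the log2 difference from the mean of the 3 normoxia libraries. Colours are cut at -1.2 and 1.2. Blue, lower than normoxia, fills most rows of the knockdown-labelled and hypoxia columns, with Mmrn2 and Gja4 in red among them.

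Per kilobase of merged exons and averaged over all 9 libraries, the members spanned a wide range of levels. Tmem100 (302.5 CPM per kb), Cldn5 (269), Thbd (247), Cdh5 (177) and Plvap (171) were the most abundant. Prox1 (0.543 CPM per kb), Selp (0.894) and Sele (1.09) were the lowest that were tested. Ackr1, a chemokine-binding receptor of venules, had 4, 11 and 5 counts in the knockdown-labelled libraries, 2, 4 and 4 in the hypoxia libraries and 0, 2 and 8 in the normoxia libraries. It was the only member left out by the filter on low counts, and 3 counts corresponded to 0.166 to 0.196 CPM. The other 45 had at least 32 counts in every library. Inside a group the members varied by a median coefficient of variation of 9.47% with the knockdown label, 9.99% in hypoxia and 9.69% in normoxia.

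Among the 15 junction and surface genes, 5 fell and 1 rose with the knockdown label, and 1 fell and 1 rose in hypoxia, both against normoxia. Of all tested genes, 3.44% fell and 4.79% rose with the label, and 1.45% fell and 2.77% rose in hypoxia. Counts against normoxia in the blocks and lists below stand beside the same shares. Cldn5 encodes claudin-5, the main tight junction claudin of endothelium (GENCODE M21, build GRCm38, as for all gene positions here: chromosome 16, 18776847 to 18778262, plus strand). It had 268, 355 and 277 CPM in the knockdown-labelled libraries, 356, 245 and 342 in the hypoxia libraries and 563, 497 and 521 in the normoxia libraries. All normoxia libraries lay above all others. The fall in hypoxia (log2 fold change -0.75, SE 0.15, adjusted p = 0.020) was lost without any one of hypoxia replicate 3 and normoxia replicates 1 and 3, with a highest adjusted p of 0.075. The fall with the knockdown label (log2 fold change -0.81, SE 0.15, adjusted p = 0.0071) was kept in each of 9 fits that left out 1 library, with a highest adjusted p of 0.036.

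Cdh5 encodes VE-cadherin, the adhesion molecule of endothelial adherens junctions (chromosome 8, 104101625 to 104144511, plus strand). It had 605, 607 and 634 CPM in the knockdown-labelled libraries, 765, 659 and 704 in the hypoxia libraries and 798, 982 and 943 in the normoxia libraries. The 3 groups did not overlap, with the lowest values under the knockdown label and the highest in normoxia. Cdh5 fell with the knockdown label against normoxia (log2 fold change -0.56, SE 0.09, adjusted p = 0.0046), a call kept in each of 9 fits that left out 1 library, with a highest adjusted p of 0.028. In hypoxia the difference from normoxia did not pass in the main edgeR fit (log2 fold change -0.36, SE 0.09, adjusted p = 0.064). It did with DESeq2, without a low-count filter and without normoxia replicate 1. The difference between both hypoxic groups did not pass (log2 fold change -0.21, adjusted p = 0.46). Ptprb encodes VE-PTP, a phosphatase that acts on VE-cadherin and Tie2 (chromosome 10, 116275523 to 116389535, plus strand). It had 1022, 806 and 881 CPM in the knockdown-labelled libraries, 975, 1027 and 924 in the hypoxia libraries and 1154, 1397 and 1356 in the normoxia libraries. Every normoxia library was above every other library. Ptprb fell with the knockdown label (log2 fold change -0.53, SE 0.11, adjusted p = 0.013, lost without normoxia replicate 3, with a highest adjusted p of 0.058). Its difference in hypoxia had an adjusted p of 0.058 in the main edgeR fit. That difference passed with DESeq2, without a low-count filter and without normoxia replicate 1.

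Tie1, the partner receptor of Tie2 in the angiopoietin system, had 295, 357 and 317 CPM in the knockdown-labelled libraries, 345, 332 and 345 in the hypoxia libraries and 378, 438 and 432 in the normoxia libraries. Esam, an adhesion molecule of tight junctions, had 231, 269.8 and 229 CPM in the knockdown-labelled libraries, 249, 238 and 276 in the hypoxia libraries and 321, 296 and 326 in the normoxia libraries. For both genes the hypoxic libraries lay below all normoxia libraries. Tie1 (log2 fold change -0.37, SE 0.09, adjusted p = 0.032) and Esam (log2 fold change -0.37, SE 0.09, adjusted p = 0.031) fell with the knockdown label. The call of Tie1 was kept in 3 of 9 fits without 1 library, those without knockdown-labelled replicate 2, hypoxia replicate 2 and normoxia replicate 1, with a highest adjusted p of 0.13 in the others. It was also lost in a fit of only the 2 groups compared (adjusted p = 0.067). That of Esam was lost without any one of knockdown-labelled replicates 1 and 3, hypoxia replicate 1 and normoxia replicates 1 and 3, with a highest adjusted p of 0.12. In hypoxia neither passed with edgeR, and Esam did with DESeq2 (log2 fold change -0.29, adjusted p = 0.11 for Tie1 and -0.31, adjusted p = 0.093 for Esam).

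Mmrn2 went the other way. It encodes multimerin-2, an extracellular matrix protein of vessels that binds the surface lectins CD93 and CLEC14A (chromosome 14, 34375465 to 34404287, plus strand). It had 75.2, 79.8 and 70.0 CPM in the knockdown-labelled libraries, 83.7, 72.6 and 67.9 in the hypoxia libraries and 47.5, 57.0 and 55.3 in the normoxia libraries. Every hypoxic library lay above every normoxia library. Mmrn2 rose in hypoxia (log2 fold change 0.49, SE 0.10, adjusted p = 0.026) and with the knockdown label (log2 fold change 0.49, SE 0.10, adjusted p = 0.015). The first call was lost without any one of hypoxia replicate 1 and normoxia replicates 1 and 3, with a highest adjusted p of 0.10, and the second was lost without any one of knockdown-labelled replicate 2 and normoxia replicate 3, with a highest adjusted p of 0.061. The call in hypoxia was also lost in a fit of only those 2 groups (adjusted p = 0.052). Its binding partners did not pass against normoxia in the main edgeR fit. Cd93 was called lower in hypoxia by DESeq2, without a low-count filter and without knockdown-labelled replicate 3. Clec14a was called lower with the knockdown label without normoxia replicate 1. Cd93 had log2 fold changes of -0.20 with the knockdown label and -0.36 in hypoxia, and Clec14a of -0.21 and -0.22.

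Pecam1, which encodes the pan-endothelial adhesion molecule CD31, did not pass in any comparison. It had 900.0, 953 and 1032 CPM in the knockdown-labelled libraries, 1023, 891 and 1042 in the hypoxia libraries and 998, 1061 and 1114 in the normoxia libraries, and the groups overlapped. Its log2 fold change was -0.14 with the knockdown label (95% interval -0.34 to 0.06) and -0.10 in hypoxia (-0.30 to 0.10), both against normoxia. Robo4, Ecscr and Icam2 likewise had log2 fold changes between -0.21 and 0.01 in both comparisons. Thbd, the thrombomodulin gene, Egfl7, Cd93, Clec14a and Emcn did not pass in either in the main edgeR fit. DESeq2 called Egfl7 lower with the knockdown label, and edgeR without a low-count filter called Thbd, Egfl7 and Cd93 lower in hypoxia and Egfl7 lower with the label.

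The promoters of members that were called are shown to let their sequences be set beside the values, for genes that fell and for the connexin gene that rose. RefSeq promoters (GRCm38.p6) were at hand for 25 of the 46 members and 8 of the 15 called ones. GGAAG, a core recognised by ETS factors such as ERG, was searched on both strands in the 250 bases before the start. It is in capitals below, as GGAAG or as its reverse complement CTTCC. At least 1 was found in 64.1% of all 32851 promoters and in 26 of the 30 promoters of members (86.7%). The tight junction gene and the receptor gene of the surface group that fell are given first. Cldn5 held no GGAAG in this window and Tie1 held 6.
Cldn5 (chr16:18776597-18776846, plus strand): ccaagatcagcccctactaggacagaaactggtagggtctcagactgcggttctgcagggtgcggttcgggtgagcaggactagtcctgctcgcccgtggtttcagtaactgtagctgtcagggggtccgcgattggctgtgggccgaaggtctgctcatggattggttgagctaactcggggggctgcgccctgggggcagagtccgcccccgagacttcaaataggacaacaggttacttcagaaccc
Tie1 (chr4:118489850-118490099, minus strand): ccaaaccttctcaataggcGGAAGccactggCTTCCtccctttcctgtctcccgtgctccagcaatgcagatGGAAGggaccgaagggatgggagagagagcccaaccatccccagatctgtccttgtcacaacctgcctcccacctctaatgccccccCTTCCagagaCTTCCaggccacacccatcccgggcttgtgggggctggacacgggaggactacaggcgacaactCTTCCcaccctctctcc

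The BMP receptor genes stood lower in both groups without passing in the main edgeR fit. All 3 were at an unadjusted p under 0.05 in both comparisons with normoxia. DESeq2 and edgeR without a low-count filter called Eng in both and Tmem100 in hypoxia. Without normoxia replicate 1 edgeR also called Eng in both. Eng encodes endoglin and Acvrl1 encodes ALK1, the receptor pair whose mutations cause hereditary haemorrhagic telangiectasia in humans. Tmem100 lies downstream of ALK1. Eng had log2 fold changes of -0.43 with the knockdown label (adjusted p = 0.059) and -0.40 in hypoxia (adjusted p = 0.12). Those of Acvrl1 were -0.23 and -0.28, and those of Tmem100 -0.22 and -0.34. Their summed level was 81.9% of normoxia with the knockdown label and 79.4% in hypoxia.

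Of the 4 transcription factor genes none passed with edgeR, DESeq2 or limma-voom in any comparison. Erg encodes an ETS factor that keeps endothelial identity, and Sox7, Sox17 and Sox18 form the SOXF group that specifies vessels. Erg had 60.3, 66.8 and 37.9 CPM in the knockdown-labelled libraries, 75.8, 62.1 and 68.2 in the hypoxia libraries and 73.2, 75.9 and 65.3 in the normoxia libraries, with knockdown-labelled replicate 3 as the lowest library. Sox17, the SOXF factor of arteries, had 66.0, 65.8 and 67.2 CPM in the knockdown-labelled libraries, 73.4, 72.5 and 77.9 in the hypoxia libraries and 68.4, 80.5 and 75.3 in the normoxia libraries. Sox18 had 97.7, 80.8 and 76.6 CPM in the knockdown-labelled libraries, 88.1, 70.5 and 100.2 in the hypoxia libraries and 70.9, 117 and 79.7 in the normoxia libraries, and its groups overlapped. For Sox7, the levels were 67.5, 65.5 and 57.4 CPM in the knockdown-labelled libraries, 56.5, 54.8 and 67.9 in the hypoxia libraries and 70.7, 81.0 and 71.1 in the normoxia libraries, and all hypoxic libraries were below all normoxia libraries. Their log2 fold changes against normoxia were -0.38 to -0.07 with the knockdown label and -0.32 to -0.003 in hypoxia. The smallest adjusted p was 0.14, that of Sox7 in hypoxia, the only one at an unadjusted p under 0.05.

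Of the 3 general capillary genes, 1 fell. Plvap encodes the protein of the diaphragms that span fenestrae and caveolae (chromosome 8, 71497765 to 71511752, minus strand). It had 256, 322 and 213 CPM in the knockdown-labelled libraries, 289, 289 and 323 in the hypoxia libraries and 376, 462 and 534 in the normoxia libraries. All normoxia libraries were above all others, and normoxia replicate 3 was the highest. Plvap fell with the knockdown label (log2 fold change -0.80, SE 0.16, adjusted p = 0.011, lost without normoxia replicate 3, with a highest adjusted p of 0.052). In hypoxia it had log2 fold change -0.61, SE 0.16, adjusted p = 0.056 in the main edgeR fit. DESeq2 and edgeR without a low-count filter called it lower there. So did the fits without any one of normoxia replicate 1 and knockdown-labelled replicates 2 and 3. Gpihbp1, which anchors lipoprotein lipase to capillary walls, had 126, 135 and 163 CPM in the knockdown-labelled libraries, 161, 150.4 and 187 in the hypoxia libraries and 186, 158 and 169 in the normoxia libraries. Aplnr, the apelin receptor gene of general capillary cells, had 53.5, 76.2 and 36.4 CPM in the knockdown-labelled libraries, 91.0, 70.9 and 92.7 in the hypoxia libraries and 62.4, 90.0 and 86.1 in the normoxia libraries. Neither passed with edgeR or DESeq2. Without a low-count filter edgeR called Aplnr lower with the label against both other groups. The knockdown-labelled values of Aplnr varied the most within a group of all members there (coefficient of variation 36.0%).

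Of the 4 aerocyte genes, 1 fell with the knockdown label in the main edgeR fit. None passed there in hypoxia, with 3 lower at an unadjusted p under 0.05. In hypoxia DESeq2 called Fibin lower and limma-voom none. Without a low-count filter edgeR called Apln, Ednrb and Fibin lower in hypoxia. Apln encodes apelin, the ligand of the apelin receptor (chromosome X, 48025146 to 48034853, minus strand). It had 50.7, 60.0 and 46.2 CPM in the knockdown-labelled libraries, 60.3, 47.5 and 62.9 in the hypoxia libraries and 77.4, 68.2 and 80.1 in the normoxia libraries. All hypoxic libraries lay below all normoxia libraries. Its fall with the knockdown label (log2 fold change -0.53, SE 0.13, adjusted p = 0.031) was lost without any one of knockdown-labelled replicates 1 and 3 and normoxia replicates 1 and 3, with a highest adjusted p of 0.12, and its log2 fold change in hypoxia was -0.40, adjusted p = 0.12. Car4, the carbonic anhydrase gene that defines aerocytes, had 150.5, 170.5 and 217 CPM in the knockdown-labelled libraries, 167, 141 and 187 in the hypoxia libraries and 190.0, 187 and 198 in the normoxia libraries, which overlapped among the groups. Ednrb, an endothelin receptor gene, had 98.9, 83.8 and 127 CPM in the knockdown-labelled libraries, 114, 107 and 103 in the hypoxia libraries and 123, 164 and 147 in the normoxia libraries. With the knockdown label its log2 fold change was -0.49, adjusted p = 0.066, and in hypoxia -0.42, adjusted p = 0.15. DESeq2 and edgeR without a low-count filter called it lower with the label. Fibin did not pass in hypoxia at a log2 fold change of -0.54, adjusted p = 0.093, with all hypoxia libraries below all normoxia libraries.

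**Figure D2:**
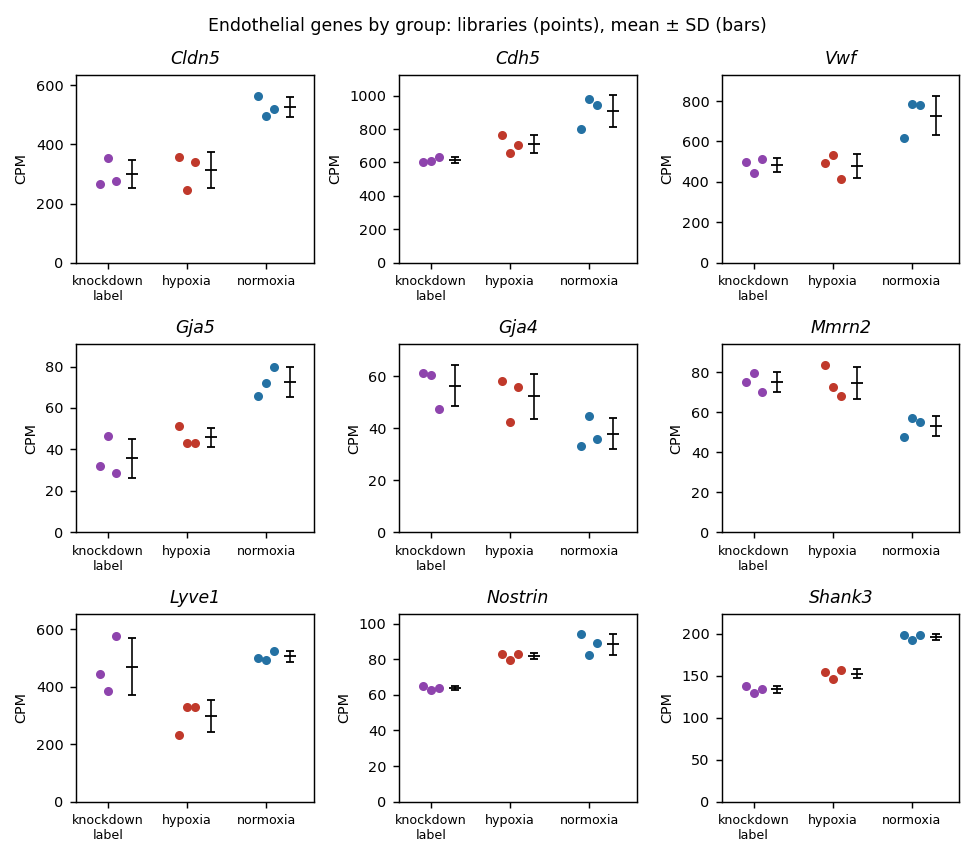
Scaled level (CPM, axis from 0) of 9 endothelial genes in each library, with points for libraries and black bars for the group mean ± SD (n = 3). By group mean, Cldn5, Cdh5, Vwf, Gja5 and Shank3 are lower in both hypoxic groups and Gja4 and Mmrn2 are higher. Lyve1 is lowest in hypoxia, and Nostrin is lowest with the knockdown label. In hypoxia Gja4 overlaps with normoxia, and neither Gja4 nor Cdh5 passed there in the main edgeR fit.

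The arterial connexin genes went in opposite directions with the knockdown label. Gja5 encodes connexin 40 (chromosome 3, 96904693 to 97077416, plus strand) and Gja4 connexin 37 (chromosome 4, 127311421 to 127314039, minus strand), which form gap junctions between arterial endothelial cells. Gja5 had 31.8, 46.2 and 28.7 CPM in the knockdown-labelled libraries, 51.2, 43.2 and 43.2 in the hypoxia libraries and 65.8, 72.0 and 79.9 in the normoxia libraries. All hypoxic libraries lay below all normoxia libraries. Gja5 fell with the knockdown label (log2 fold change -1.03, SE 0.16, adjusted p = 0.0030), a call kept in each of 9 fits that left out 1 library, with a highest adjusted p of 0.019, and in hypoxia (log2 fold change -0.66, SE 0.16, adjusted p = 0.045), a call kept in 2 of 9 fits without 1 library, those without knockdown-labelled replicates 2 and 3, with a highest adjusted p of 0.19 in the others.

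Gja4 had 61.5, 60.4 and 47.4 CPM in the knockdown-labelled libraries, 58.4, 42.5 and 56.0 in the hypoxia libraries and 33.3, 44.8 and 35.7 in the normoxia libraries. All knockdown-labelled libraries were above all normoxia libraries, and hypoxia replicate 2 lay inside the range of normoxia. Gja4 rose with the knockdown label (log2 fold change 0.57, SE 0.15, adjusted p = 0.046), a call kept in 3 of 9 fits without 1 library, those without knockdown-labelled replicate 3, hypoxia replicate 2 and normoxia replicate 2, with a highest adjusted p of 0.17 in the others and lost with limma-voom (adjusted p = 0.055). In hypoxia its log2 fold change was 0.46, adjusted p = 0.14. Without a low-count filter and without hypoxia replicate 2, edgeR called it higher there. The 2 connexin promoters are shown because their genes went opposite ways. Each held 1 GGAAG. The RefSeq starts used for Gja5 and Tie1 lie inside their longer GENCODE genes.
Gja5 (chr3:97032152-97032401, plus strand): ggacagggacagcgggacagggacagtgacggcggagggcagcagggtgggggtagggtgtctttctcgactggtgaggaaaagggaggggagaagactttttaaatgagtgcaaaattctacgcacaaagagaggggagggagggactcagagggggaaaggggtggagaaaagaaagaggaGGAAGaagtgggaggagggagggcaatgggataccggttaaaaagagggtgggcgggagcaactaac
Gja4 (chr4:127314040-127314289, minus strand): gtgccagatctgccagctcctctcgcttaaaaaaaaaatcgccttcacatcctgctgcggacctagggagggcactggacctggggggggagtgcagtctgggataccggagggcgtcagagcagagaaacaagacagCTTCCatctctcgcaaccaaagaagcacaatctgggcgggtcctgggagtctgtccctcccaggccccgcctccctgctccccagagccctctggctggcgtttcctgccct
The other arterial genes did not pass. Hey1, a Notch target, had log2 fold changes of 0.18 with the knockdown label and 0.32 in hypoxia (adjusted p = 0.16), and the kinase gene Bmx -0.02 and -0.12. The summed level of the 4 arterial genes was 97.2% of normoxia with the knockdown label and 104.5% in hypoxia.

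Among the venous and adhesion genes, Vwf fell in both groups and the leukocyte adhesion genes did not pass with edgeR. Vwf encodes von Willebrand factor, which tethers platelets to injured vessel walls (chromosome 6, 125546774 to 125686679, plus strand). It had 497, 444 and 511 CPM in the knockdown-labelled libraries, 494, 531 and 414 in the hypoxia libraries and 614, 787 and 781 in the normoxia libraries. All hypoxic libraries were below all normoxia libraries, of which replicate 1 was the lowest. The fall in hypoxia (log2 fold change -0.60, SE 0.12, adjusted p = 0.022) was lost without any one of hypoxia replicates 1 and 3 and normoxia replicates 2 and 3, with a highest adjusted p of 0.10. It was also lost in a fit of only those 2 groups (adjusted p = 0.052). The fall with the knockdown label (log2 fold change -0.59, SE 0.12, adjusted p = 0.014) was lost without any one of knockdown-labelled replicate 2 and normoxia replicate 3, with a highest adjusted p of 0.063. Platelets also carry Vwf and Selp. Of 12 tested platelet genes, 3 fell in each group against normoxia. The summed level of the 13 genes listed was 152 to 195 CPM with the knockdown label, 142 to 182 in hypoxia and 195 to 391.5 in normoxia. Of them only Gp1bb was at 0 in all libraries of a group, in both hypoxic groups. The part of platelets in the fall of Vwf was not tested.

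Selp, the P-selectin gene, had 7.60, 4.83 and 5.51 CPM in the knockdown-labelled libraries, 2.27, 2.34 and 2.76 in the hypoxia libraries and 2.02, 3.57 and 4.62 in the normoxia libraries. Its knockdown-labelled libraries were above all others, without passing with edgeR against hypoxia (log2 fold change 1.28, SE 0.31, adjusted p = 0.078) or normoxia (log2 fold change 0.81, adjusted p = 0.14). DESeq2, edgeR without a low-count filter and the fit without normoxia replicate 1 called Selp higher against hypoxia. Sele, the E-selectin gene, had 2.68, 2.48 and 2.40 CPM in the knockdown-labelled libraries, 3.32, 2.05 and 2.76 in the hypoxia libraries and 4.43, 2.48 and 5.88 in the normoxia libraries, with overlapping groups. Icam1, a ligand of leukocyte integrins, had 503, 527 and 496 CPM in the knockdown-labelled libraries, 424, 431 and 456 in the hypoxia libraries and 386, 422 and 462 in the normoxia libraries. All its knockdown-labelled libraries lay above all others, with a log2 fold change of 0.27, adjusted p = 0.075 against normoxia, and 0.22, adjusted p = 0.32 against hypoxia. DESeq2 called Icam1 higher against normoxia. Vcam1 had 106, 115 and 107 CPM in the knockdown-labelled libraries, 71.2, 78.4 and 106 in the hypoxia libraries and 106, 86.4 and 107 in the normoxia libraries, and none of its comparisons passed.

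The lymphatic genes did not move as 1 group. Lyve1 encodes a hyaluronan receptor of lymphatic endothelium that some tissue macrophages also carry (chromosome 7, 110850607 to 110863239, minus strand). It had 445, 385 and 578 CPM in the knockdown-labelled libraries, 234, 329 and 331 in the hypoxia libraries and 499, 492 and 526 in the normoxia libraries. Hypoxia was the low group, below all libraries of the other two. The fall in hypoxia against normoxia (log2 fold change -0.76, SE 0.16, adjusted p = 0.025) was lost without any one of hypoxia replicates 1 and 3 and normoxia replicates 1, 2 and 3, with a highest adjusted p of 0.10. With the knockdown label Lyve1 stood above hypoxia without passing with edgeR (log2 fold change 0.66, SE 0.16, adjusted p = 0.080), and overlapped with normoxia (log2 fold change -0.11, adjusted p = 0.75). DESeq2, edgeR without a low-count filter and the fit without knockdown-labelled replicate 2 called Lyve1 higher against hypoxia. Among 14 macrophage and monocyte genes, 9 rose with the knockdown label and 4 in hypoxia, both against normoxia. Their summed level was 707 to 827 CPM with the knockdown label, 525 to 637 in hypoxia and 391 to 427 in normoxia, with none at 0. Per kilobase of merged exons over all 9 libraries, Lyve1 stood at 145 CPM, Mmrn1 at 5.32 and Prox1 at 0.543. Which cells carried the Lyve1 counts, lymphatic or other, was not tested.

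Prox1, the master transcription factor of lymphatic fate, had 4.86, 4.44 and 5.80 CPM in the knockdown-labelled libraries, 4.26, 5.93 and 3.62 in the hypoxia libraries and 4.30, 4.05 and 3.72 in the normoxia libraries. Mmrn1, the multimerin gene of lymphatic endothelium and platelets, had 31.7, 28.2 and 45.0 CPM in the knockdown-labelled libraries, 21.9, 28.6 and 23.2 in the hypoxia libraries and 27.5, 41.0 and 33.8 in the normoxia libraries. Neither passed in any comparison. Of 7 tested further lymphatic genes, 1 rose with the knockdown label against hypoxia and 1 against normoxia, and none changed in hypoxia against normoxia with edgeR (2 higher at an unadjusted p under 0.05). Both calls were of Fgl2, which T cells and macrophages also make. Against hypoxia it had log2 fold change 0.58, SE 0.11, adjusted p = 0.018, a call lost without any one of knockdown-labelled replicates 2 and 3 and hypoxia replicate 3, with a highest adjusted p of 0.097, and against normoxia a log2 fold change of 0.90, adjusted p = 0.00047.

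Of the 4 remaining endothelium-enriched genes, 3 fell with the knockdown label and 1 in hypoxia. Shank3 encodes a scaffold protein best known from synapses (chromosome 15, 89499623 to 89560261, plus strand). It had 138, 129 and 134 CPM in the knockdown-labelled libraries, 155, 146 and 157 in the hypoxia libraries and 198, 193 and 199 in the normoxia libraries. The 3 groups did not overlap, and normoxia was the highest. Shank3 fell in hypoxia (log2 fold change -0.37, SE 0.07, adjusted p = 0.014, lost without any one of hypoxia replicate 1 and normoxia replicate 3, with a highest adjusted p of 0.079) and with the knockdown label (log2 fold change -0.55, SE 0.07, adjusted p = 0.00057, kept in each of 9 fits that left out 1 library, with a highest adjusted p of 0.0051). Cyyr1 (chromosome 16, 85421533 to 85553397, minus strand) had 212, 202 and 236 CPM in the knockdown-labelled libraries, 269, 265 and 245 in the hypoxia libraries and 247, 343 and 341 in the normoxia libraries. It fell with the knockdown label (log2 fold change -0.52, SE 0.12, adjusted p = 0.026), a call lost without any one of knockdown-labelled replicates 1 and 2 and normoxia replicates 2 and 3, with a highest adjusted p of 0.12. Slco2a1, the prostaglandin transporter gene, had log2 fold changes of 0.10 with the knockdown label and -0.03 in hypoxia.

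The comparison of the knockdown-labelled with the hypoxia libraries asks what the knockdown changes under hypoxia. Of 45 tested members, 1 fell (2.22%, against 0.449% of all genes) and none rose with edgeR (2 with DESeq2, none with limma-voom; 1.26% of all genes rose and 1.71% changed either way). At an unadjusted p under 0.05, 5 were lower (5.02% of all genes) and 5 higher (5.94%). The median log2 fold change was -0.03 over the members and -0.003 over all tested genes, and 24 members were below 0 (50.6% of all genes). All knockdown-labelled libraries lay below all hypoxia libraries for 6 members (13.3%, against 7.43% of all genes) and above them for 3 (6.67%, against 8.58%). The member that fell was Nostrin, whose product directs the trafficking of endothelial nitric oxide synthase (chromosome 2, 69135800 to 69189330, plus strand). It had 65.1, 62.7 and 63.8 CPM in the knockdown-labelled libraries, 82.7, 79.7 and 83.2 in the hypoxia libraries and 94.2, 82.2 and 89.0 in the normoxia libraries. The knockdown-labelled libraries were the lowest, while hypoxia and normoxia overlapped. Nostrin fell against hypoxia (log2 fold change -0.36, SE 0.07, adjusted p = 0.039), a call kept in 3 of 9 fits without 1 library, those without hypoxia replicate 2 and normoxia replicates 1 and 2, with a highest adjusted p of 0.14 in the others. It was also lost in a fit of only those 2 groups (adjusted p = 0.0545). It also fell against normoxia (log2 fold change -0.47, SE 0.07, adjusted p = 0.0032), kept in each of 9 fits that left out 1 library, with a highest adjusted p of 0.019, and hypoxia itself did not differ from normoxia past the threshold (log2 fold change -0.11, adjusted p = 0.49). Emcn, an endothelial sialomucin gene, was lower in all knockdown-labelled than in all hypoxia libraries without passing with edgeR (log2 fold change -0.47, SE 0.12, adjusted p = 0.12). DESeq2 and edgeR without a low-count filter called Emcn lower. For genes called against normoxia in 1 hypoxic group only, this comparison is the test of the difference. Given as log2 fold changes with edgeR, it did not pass for Cdh5 (-0.21, adjusted p = 0.46), Plvap (-0.19, adjusted p = 0.76), Ptprb (-0.11, adjusted p = 0.81), Apln (-0.12, adjusted p = 0.83), Esam (-0.06, adjusted p = 0.89), Tie1 (-0.08, adjusted p = 0.85), Gja4 (0.11, adjusted p = 0.89), Cyyr1 (-0.26, adjusted p = 0.48) or Lyve1 (0.66, adjusted p = 0.080).

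**Figure D3:**
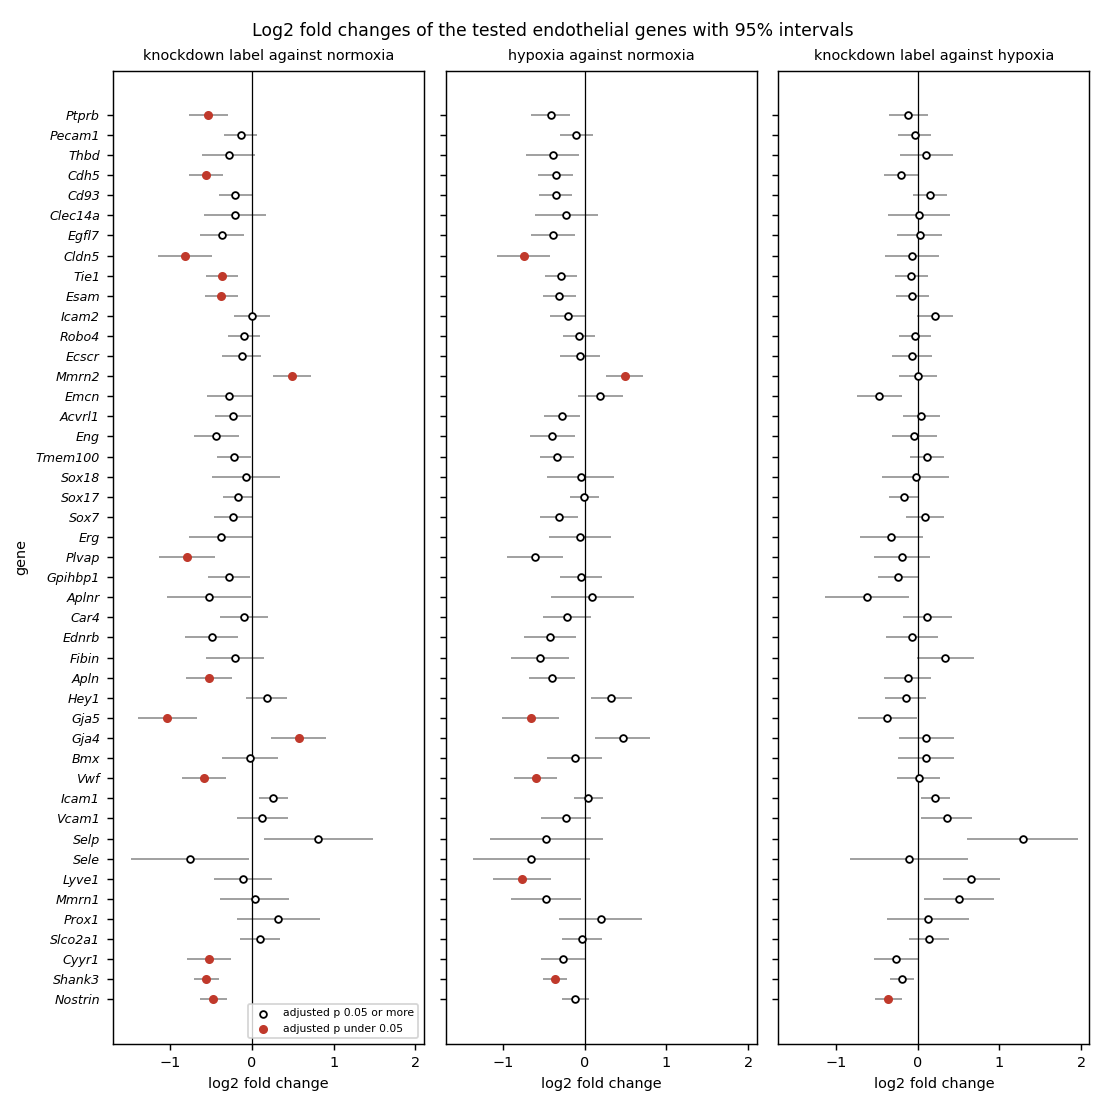
Log2 fold change (points) with 95% interval (lines) of each tested endothelial gene in the 3 comparisons, red where the adjusted p was under 0.05. Most points of the 2 comparisons with normoxia lie left of 0, with 12 and 5 genes called lower, while those of the third scatter around 0 and only Nostrin is called.

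Further endothelial genes outside the 46 were read by the same test. They too were chosen with earlier results of these data known, so their counts are no independent check of the 46. Of 41 such genes, 9 fell (21.95%, against 3.44% of all genes) and 2 rose (4.88%, against 4.79%) with the knockdown label against normoxia. In hypoxia against normoxia, 6 fell (14.6%, against 1.45%) and 1 rose (2.44%, against 2.77%). Between both hypoxic groups none changed with edgeR (5 lower and 3 higher at an unadjusted p under 0.05). Their median log2 fold changes were -0.27, -0.25 and -0.004. Cd34, a sialomucin gene of capillaries and fibroblasts, was the 1 that rose in both. It had 242, 273 and 244 CPM in the knockdown-labelled libraries, 252, 226 and 269.9 in the hypoxia libraries and 162, 160.3 and 148 in the normoxia libraries, with no overlap with normoxia. It rose in hypoxia (log2 fold change 0.67, SE 0.09, adjusted p = 0.0036, kept in each of 9 fits that left out 1 library, with a highest adjusted p of 0.029) and with the knockdown label (log2 fold change 0.69, SE 0.09, adjusted p = 0.00076, kept in each of 9 fits that left out 1 library, with a highest adjusted p of 0.0080). Tspan7, a tetraspanin gene, had 532, 596 and 578 CPM in the knockdown-labelled libraries, 659, 546 and 591 in the hypoxia libraries and 772, 904 and 927 in the normoxia libraries. It fell with the knockdown label (log2 fold change -0.61, SE 0.10, adjusted p = 0.0037, kept in each of 9 fits that left out 1 library, with a highest adjusted p of 0.024) and in hypoxia (log2 fold change -0.54, SE 0.10, adjusted p = 0.014, lost without any one of hypoxia replicate 3 and normoxia replicates 2 and 3, with a highest adjusted p of 0.082).

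Gata2, a factor of endothelial and blood progenitors, had 137, 116 and 171 CPM in the knockdown-labelled libraries, 133, 122 and 134 in the hypoxia libraries and 216, 215 and 189 in the normoxia libraries. It fell in hypoxia (log2 fold change -0.67, SE 0.13, adjusted p = 0.015, lost without any one of hypoxia replicates 1 and 3, with a highest adjusted p of 0.054) and with the knockdown label (log2 fold change -0.55, adjusted p = 0.023, lost without any one of knockdown-labelled replicates 1 and 2 and normoxia replicates 1 and 2, with a highest adjusted p of 0.079). With the knockdown label, Sema3c (log2 fold change -0.60, adjusted p = 0.0028) and the scavenger receptor gene Stab1 (log2 fold change -0.40, adjusted p = 0.0072) also fell, both in each of 9 fits that left out 1 library. In hypoxia they fell too (log2 fold change -0.38, adjusted p = 0.045 for Sema3c and -0.31, adjusted p = 0.041 for Stab1). Each of these hypoxia calls was kept in 1 of 9 fits without 1 library. Both were lost with limma-voom and in a fit of only those 2 groups. Tbx3 fell in hypoxia (log2 fold change -0.44, adjusted p = 0.034), a call kept in 2 of 9 fits without 1 library, those without knockdown-labelled replicate 2 and normoxia replicate 1, with a highest adjusted p of 0.14 in the others. It was also lost in a fit of only those 2 groups (adjusted p = 0.074).

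Among the 9 genes of blood flow response, the transcription factor genes Klf2 and Klf4 fell. Both are induced by laminar flow in endothelium, and other cell types express them too. Klf4 (chromosome 4, 55527143 to 55532466, minus strand) had 116, 115 and 184 CPM in the knockdown-labelled libraries, 177, 166 and 175 in the hypoxia libraries and 361, 277 and 352 in the normoxia libraries. It fell with the knockdown label (log2 fold change -1.26, SE 0.17, adjusted p = 0.0013), a call kept in each of 9 fits that left out 1 library, with a highest adjusted p of 0.0076, and in hypoxia (log2 fold change -0.93, SE 0.17, adjusted p = 0.013), a call lost without any one of hypoxia replicates 1 and 3 and normoxia replicate 3, with a highest adjusted p of 0.063. Klf2 (chromosome 8, 72319033 to 72321656, plus strand) had 137, 193 and 197 CPM in the knockdown-labelled libraries, 254, 188 and 262 in the hypoxia libraries and 357, 346 and 333 in the normoxia libraries, with all hypoxic libraries below normoxia. It fell with the knockdown label (log2 fold change -0.97, SE 0.15, adjusted p = 0.0029, kept in each of 9 fits that left out 1 library, with a highest adjusted p of 0.013) and in hypoxia had a log2 fold change of -0.55, adjusted p = 0.070. Of 14 immediate early genes, 5 fell with the knockdown label and 4 in hypoxia, both against normoxia. Their summed level was 1016 to 1796 CPM, 999 to 1351 and, in normoxia, 1830 to 3379.7 CPM, with none at 0, and their relation to the KLF genes was not tested.

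In the Notch pathway, 1 of 14 genes fell with the knockdown label (7.14%, against 3.44% of all genes) and 2 in hypoxia (14.3%, against 1.45%). Efnb2, the ephrin of arterial endothelium, had 235, 226 and 244 CPM in the knockdown-labelled libraries, 298, 300.4 and 276 in the hypoxia libraries and 346, 379 and 382 in the normoxia libraries, with no overlap among the 3 groups. It fell with the knockdown label (log2 fold change -0.65, SE 0.08, adjusted p = 0.00038, kept in each of 9 fits that left out 1 library, with a highest adjusted p of 0.0037) and in hypoxia (log2 fold change -0.34, SE 0.07, adjusted p = 0.030, lost without any one of knockdown-labelled replicate 1, hypoxia replicates 1 and 3 and normoxia replicates 2 and 3, with a highest adjusted p of 0.14). The call in hypoxia was also lost in a fit of only those 2 groups (adjusted p = 0.064). The Notch target Heyl, which vascular smooth muscle also expresses, fell in hypoxia (log2 fold change -0.80, SE 0.16, adjusted p = 0.022), a call lost without any one of hypoxia replicates 1 and 3 and normoxia replicates 2 and 3, with a highest adjusted p of 0.10. In the BMP and ALK1 pathway, 2 of 17 tested genes fell (11.8%, against 3.44% of all genes) and 1 rose (5.88%, against 4.79%) with the knockdown label. In hypoxia 1 rose (5.88%, against 2.77%). The ligand gene Bmp6 (log2 fold change -0.81, adjusted p = 0.0037, kept in each of 9 fits that left out 1 library, with a highest adjusted p of 0.022) and the BMP target Atoh8 (log2 fold change -0.79, adjusted p = 0.014, lost without any one of knockdown-labelled replicate 3 and normoxia replicate 3, with a highest adjusted p of 0.062) fell with the knockdown label. Id2, a target that lymphocytes also express, rose with the knockdown label (log2 fold change 0.49, adjusted p = 0.041), a call kept in 3 of 9 fits without 1 library, those without hypoxia replicates 1 and 2 and normoxia replicate 2, with a highest adjusted p of 0.14 in the others, and in hypoxia (log2 fold change 0.63, adjusted p = 0.022), a call lost without any one of hypoxia replicates 1 and 3 and normoxia replicates 1 and 3, with a highest adjusted p of 0.092.

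**Figure D4:**
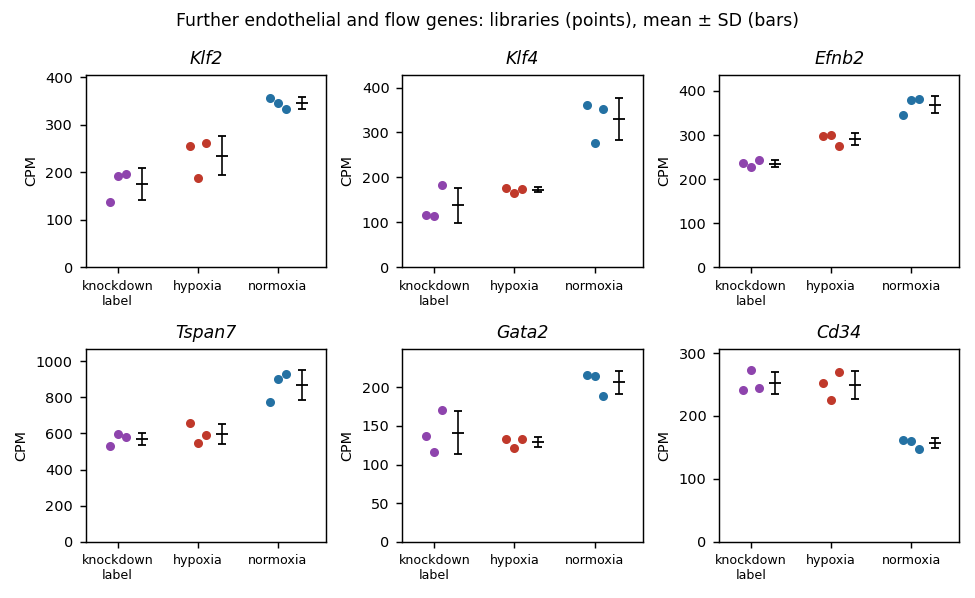
Scaled level (CPM, axis from 0) of 6 genes outside the 46 in each library, with points for libraries and black bars for the group mean ± SD (n = 3). Klf2, Klf4, Efnb2, Tspan7 and Gata2 are highest in normoxia, and Cd34 is lowest there.

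Markers of some other cells moved with the same contrasts, and those of others did not. Of all tested genes, 4.79% rose and 3.44% fell with the knockdown label against normoxia, and 2.77% rose and 1.45% fell in hypoxia. All 17 T and NK cell genes rose in hypoxia and 8 with the knockdown label, with summed levels of 394 to 580 CPM with the label, 356 to 1082 in hypoxia and 93.0 to 116 in normoxia. Of 14 cell cycle genes, 12 rose in hypoxia and 1 with the knockdown label, with sums of 260.2 to 302 CPM with the label, 228 to 542 in hypoxia and 154 to 192 in normoxia. The lowest hypoxia value of both lists was that of replicate 2. Of 10 erythroid genes, 9 fell and 1 rose with the label and 7 fell in hypoxia. Their sums were 310 to 438 CPM, 790 to 1033 and 1764 to 4543 in the same order. Of 15 genes of smooth muscle and pericytes, 3 fell with the label and 2 in hypoxia, at 609 to 719 CPM, 593 to 722 and 834 to 856. Alveolar type 1 genes fell in 3 and 1 of 10 cases, at 5726 to 6158 CPM, 5230 to 6247 and 6132 to 6702. Of 10 alveolar type 2 genes, 1 rose and 1 fell with the label and none passed in hypoxia. Their sums were 25554 to 33076 CPM, 22539 to 29791 and 23543 to 25144. Of 10 fibroblast genes, 1 rose and 1 fell with the label and 1 fell in hypoxia. None of 10 B and plasma cell, 6 mesothelium, 9 cardiac muscle and 3 tested skeletal muscle genes passed against normoxia with edgeR. Of these lists, only that of skeletal muscle had genes at 0 in a group. The part of these other cells in the lower endothelial levels was not tested.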

How the data were processed

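Lung RNA of 9 libraries in 3 groups of 3 was analysed from the raw counts per gene deposited by the authors, with symbols as in that table. Per the labels' protocols, an RNeasy kit gave total RNA and NEBNext Ultra reagents the libraries. Build mm10 and the programs HISAT2, TopHat, StringTie, bcl2fastq, DESeq and limma are named per the submitters' processing notes. Their versions, the counter and its strand setting were not given in the sources used here. Overlapping genes can therefore share reads.

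The test was that of edgeR 4.0.16 (R 4.3.3). The filterByExpr filter kept 17578 genes, TMM factors were 0.976 to 1.03, and 1 quasi-likelihood model had a coefficient per group (6 residual degrees of freedom, common biological coefficient of variation 17.3%). The Benjamini-Hochberg adjustment ran over every tested gene, with a threshold of 0.05. Standard errors come from the F statistic. CPM are the counts over the summed counts of tested genes, scaled by TMM. Detection floors cover counting error only, and the labels name no molecular identifiers. The script was tested on simulated data.

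The members and lists were chosen with earlier results of these data known. Values in every library are given for members past the threshold and for 20 members fixed as carriers of vessel types. Of the pathway lists, up to 4 called genes per comparison are named by smallest p, with the hypoxia calls of Sema3c and Stab1 given besides. Positions and exon lengths are from GENCODE M21 (GRCm38), by gene identifier: of 30400 shared identifiers only 651 matched in position, so the positions deposited were left aside. Chi-square over degrees of freedom was 12.5 to 25.0 between replicates, and each library was counted once. Alternatives were DESeq2 1.42.0 (size factors, Wald and likelihood ratio tests), limma-voom (limma 3.58.1), 2 other count filters, a fit of the 2 groups compared, a replicate block and leaving out each library.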

Additional observations from a re-analysis of the deposited data

How the results depend on the processing

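No called gene reversed direction under any alternative. Over 51 called results (a gene in a comparison), 628 alternative values kept the call and 188 lost it. The counts of called members depended on the tool and the filter. Without a low-count filter, 16 fell and 2 rose in hypoxia against normoxia, 3 fell and 2 rose with the knockdown label against hypoxia, and 23 differed among the 3 groups. DESeq2 gave 13 lower in hypoxia, 2 lower and 2 higher with the knockdown label against hypoxia, and 22 among the 3 groups. For the test among the 3 groups, the share of all genes is given for the main fit only. The other counts of that test are thus not set beside such a share. In a fit of only the 2 groups, none rose in hypoxia with edgeR (3 at an unadjusted p under 0.05) and none fell with the knockdown label against hypoxia (7 at an unadjusted p under 0.05). With limma-voom 1 member rose with the knockdown label against normoxia. The cause was not tested. Leaving out 1 library gave 0 to 8 lower and 0 to 2 higher in hypoxia, 5 to 13 lower and 0 to 2 higher with the label against normoxia, 0 to 1 lower and 0 to 1 higher with it against hypoxia, and 4 to 13 among the 3 groups. With the replicate block, 2 fell and 0 rose in hypoxia, and 0 fell with the label against hypoxia. With the label against normoxia, 9 members passed and 1 of them rose. Among the genes named above, the block lost the hypoxia calls of Cldn5, Gja5, Vwf, Mmrn2, Tspan7, Sema3c, Stab1, Tbx3, Heyl, Efnb2 and Id2. It lost the label calls against normoxia of Esam, Tie1, Apln, Gja4, Cyyr1 and Id2, and those against hypoxia of Nostrin and Fgl2. The labels do not say what libraries of the same replicate number share. Deviations of same-numbered libraries correlated at -0.46 to 0.30, and those of other pairs at -0.34 to 0.49, so not every library correlated best with its own number. With 3 libraries a group, these correlations cannot settle whether the numbers mark a shared batch.

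Over all genes, 487 rose and 255 fell in hypoxia against normoxia. This was 851 and 442 without a filter, 814 and 495 with DESeq2, 267 and 195 with limma-voom, 276 and 168 in the 2-group fit and 282 and 118 with the block. Without 1 library it was 138 to 750 and 71 to 248. Against hypoxia, 222 rose and 79 fell with the knockdown label, 376 and 268 without a filter, 362 and 205 with DESeq2, 230 and 40 with limma-voom, 158 and 39 with the block, and 159 to 242 and 30 to 243 without 1 library. Against normoxia, 842 rose and 604 fell with it, 1147 and 927 with DESeq2, 584 and 352 with the block, and 457 to 935 and 258 to 632 without 1 library. Depth left Ackr1 untested.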
